A study of Mus musculus with 23 samples.

Results

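The comparison is between mouse macrophages given stearic acid (SA), a saturated fatty acid, and macrophages given lipopolysaccharide (LPS), the bacterial outer membrane lipid that activates Toll-like receptor 4 (TLR4), both labelled 5 h. It rests on the 4 arrays titled for SA at 5 h and the 4 titled for LPS at 5 h, which are 8 of the 23 arrays of the series. The cells on all arrays were macrophages grown from bone marrow of C57BL/6 mice of wild-type genotype. They had 6 days with the growth factor M-CSF (10 ng/mL), which was then taken away, and treatment followed 1 to 3 days later. SA was given at 250 µM, bound to fatty acid-free bovine serum albumin (BSA) in a 2:1 molar ratio, and LPS at 1 ng/mL. Vehicle was BSA at 125 µM for 5 h (n = 3), and oleic acid (OA), an unsaturated acid given in the same way at 250 µM for 5 h (n = 4), gave a second reference. The sample labels give 5 h for LPS and vehicle, while the series text gives 4 h. If the series text is right, an hour of exposure and the treatment cannot be told apart. The labels do not say whether the LPS wells also received BSA. Replicates are wells in the sample labels and biological replicates in the series text, so the p-values cover only the spread among these arrays, part of which may be technical.

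LPS bound to TLR4 switches on NF-kB, which drives cytokine and chemokine genes, and the adaptor TRIF, which leads through IRF3 to interferon beta and then to interferon-stimulated genes. Saturated fatty acids enter the cell, are turned into acyl-CoA and built into membrane lipids and droplets. When they accumulate they can stress the endoplasmic reticulum (ER), and the kinase PERK then phosphorylates eIF2alpha, which favours translation of the transcription factor ATF4 and expression of its partner CHOP, encoded by Ddit3. Saturated fatty acids have also been discussed as triggers of TLR4 signalling. All cells here were wild-type, and whether SA acted through TLR4 was not tested.

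Promoters with the regulatory motifs of these pathways are shown first, for 6 genes on either side of the comparison. Sequences are the 250 bases before the RefSeq transcription start site (build GRCm38.p6), written 5′ to 3′ along the gene. Capitals mark a match to the motif searched on both strands, and positions count the first matched base from the start site, with the base before it as -1. Ifit1 stands for the interferon-stimulated genes. Its window, chr19:34640639-34640888 on the plus strand, held 2 matches to the core of the interferon response element (GAAA, any 2 bases, GAAA) at -104 and -85. Both were on the reverse strand and so appear as TTTC, any 2 bases, TTTC.
Ifit1: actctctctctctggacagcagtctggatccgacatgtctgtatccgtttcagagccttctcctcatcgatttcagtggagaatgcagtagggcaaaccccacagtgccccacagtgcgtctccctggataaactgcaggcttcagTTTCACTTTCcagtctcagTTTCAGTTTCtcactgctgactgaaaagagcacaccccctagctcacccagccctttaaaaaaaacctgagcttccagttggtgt
Il6 had the largest difference of all genes in favour of LPS, and Cxcl2 a small one among the called chemokines. The Il6 window, chr5:30012864-30013113 on the plus strand, held a kB site (GGGA, any 2 bases, TTCC) at -44, and the Cxcl2 window, chr5:90903649-90903898 on the plus strand, held overlapping matches to it at -97 and -96.
Il6: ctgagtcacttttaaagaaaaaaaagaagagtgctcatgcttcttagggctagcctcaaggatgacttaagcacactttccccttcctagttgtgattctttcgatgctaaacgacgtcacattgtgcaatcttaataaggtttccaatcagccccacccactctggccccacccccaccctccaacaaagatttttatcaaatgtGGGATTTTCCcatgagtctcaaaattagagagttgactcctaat
Cxcl2: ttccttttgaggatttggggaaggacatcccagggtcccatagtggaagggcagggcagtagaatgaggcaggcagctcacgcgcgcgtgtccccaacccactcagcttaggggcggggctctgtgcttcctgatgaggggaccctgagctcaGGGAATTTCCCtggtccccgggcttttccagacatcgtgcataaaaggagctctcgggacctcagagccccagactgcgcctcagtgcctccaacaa
Chac1 and Asns were higher with SA and Slc7a11 was higher with LPS, and all 3 windows held TGATGNAA, the composite element bound by ATF4 with C/EBP factors. The match lay at -193 in Chac1 (chr2:119350992-119351241, plus strand), at -23 in Asns (chr6:7693210-7693459, minus strand), and at -66 and -47 in Slc7a11 (chr3:50443614-50443863, minus strand).
Chac1: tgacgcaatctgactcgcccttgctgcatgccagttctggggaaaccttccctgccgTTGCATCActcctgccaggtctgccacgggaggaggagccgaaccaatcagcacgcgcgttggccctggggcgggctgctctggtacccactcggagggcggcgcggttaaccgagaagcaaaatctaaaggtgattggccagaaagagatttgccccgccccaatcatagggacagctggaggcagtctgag
Asns: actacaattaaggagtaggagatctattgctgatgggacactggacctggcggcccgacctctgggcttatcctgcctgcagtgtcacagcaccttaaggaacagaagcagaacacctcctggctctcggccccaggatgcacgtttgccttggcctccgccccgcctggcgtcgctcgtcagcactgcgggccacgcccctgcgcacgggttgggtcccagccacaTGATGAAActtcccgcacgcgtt
Slc7a11: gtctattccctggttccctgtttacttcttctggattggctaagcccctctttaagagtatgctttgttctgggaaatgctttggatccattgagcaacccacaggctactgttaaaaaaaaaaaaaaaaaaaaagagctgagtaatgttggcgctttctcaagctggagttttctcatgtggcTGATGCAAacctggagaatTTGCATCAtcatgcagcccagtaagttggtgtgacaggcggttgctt
In the full RefSeq windows, which add 50 bases after the start site, 3.44% of 32851 promoters held the interferon motif, 3.97% the ATF4 motif and 1.47% the kB site. Per gene, counting any promoter of 15614 tested genes with a window, the shares were 3.89%, 3.62% and 1.60%. A match is a description of these letters and shows neither binding nor a cause.

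Values were log2 expression per gene, measured on arrays for 19938 genes. Probe sets differ in their response, so genes are not ranked by level, and a level near or under the array median is named only where it makes the size of a fold uncertain. Medians over the tested genes lay between 4.18 and 4.29 on the 8 arrays. With SA they were 4.21 and 4.23 for replicates 1 and 2, and 4.29 for replicates 3 and 4. No single array stood apart from its group, with standard deviations of the gene deviations of 0.16 to 0.185 with SA and 0.163 to 0.17 with LPS. These standard deviations cannot show a split of 2 against 2 arrays. The number of arrays limits the precision. Of 10 macrophage markers 9 were measured, with group means of 5.80 to 11.9 on the log2 scale. Markers of lymphocytes and erythroid cells did not pass the test in either direction (0 of 12 and 0 of 5). Neutrophil markers differed: 7 of 14 were higher with LPS and 0 with SA, with list means of 5.80 to 6.18 over the SA arrays and 6.33 to 6.59 over the LPS arrays. The 7 were Camp, Ngp, Ltf, Retnlg, Csf3r, S100a8 and S100a9, while the defining marker Ly6g had means of 2.62 with SA and 2.66 with LPS, and the means of Elane, Prtn3 and Mpo lay between 3.58 and 4.45 in both groups. Retnlg did not pass the test with array weights (limma adjusted p = 0.0757) or in 5 of the 8 fits without 1 array (0.0627 to 0.148), which were those without replicate 2 or 3 of SA and without replicate 2, 3 or 4 of LPS. Of the other markers, 2 of 12 for dendritic cells (Bst2 and Ccr9), 2 of 10 for mast cells and basophils (Hdc and Mcpt8) and 1 of 12 for stromal cells (Pdgfrb) were higher with LPS and 0 with SA, against 9.11% of all genes higher with LPS. The part of these other markers in the results below was not tested. In bulk samples, fewer cells of a type and less RNA per cell cannot be told apart.

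Called means an adjusted p under 0.05, from a limma fit over all 6 groups of the series with Benjamini-Hochberg adjustment over all genes. SA and LPS differed for 4400 genes (22.1% of those tested). Of these 2584 (13% of those tested) were higher with SA and 1816 (9.11%) higher with LPS. The large differences lay on the LPS side: 750 called genes differed by 2-fold or more, 508 of them higher with LPS and 242 higher with SA. The median difference over all genes was 0.04 and the median standard error 0.12 on the log2 scale. Small differences depended on the scaling: with each array centred on its median, 4052 genes were called and the split was 1924 higher with SA and 2128 higher with LPS. Against vehicle, SA changed 664 genes (3.33%), of which 386 rose (1.94%) and 278 fell (1.39%). LPS changed 4464 (22.4%), of which 1839 rose (9.22%) and 2625 fell (13.2%). SA and OA differed for 1131 genes (5.67%), 658 higher with SA (3.3%) and 473 higher with OA (2.37%), and for 660 genes when only SA and OA entered the fit. OA changed 14 genes from vehicle (0.0702%), 4 upward (0.0201%) and 10 downward (0.0502%). After the same centring the count for LPS against vehicle was 4064, with 2114 upward and 1950 downward. The count for SA against vehicle fell to 389 without replicate 2 of vehicle and to 373 when only SA and vehicle entered the fit. The comparisons with vehicle share the 3 vehicle arrays, so their values are given side by side and not correlated.

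**Figure D1:**
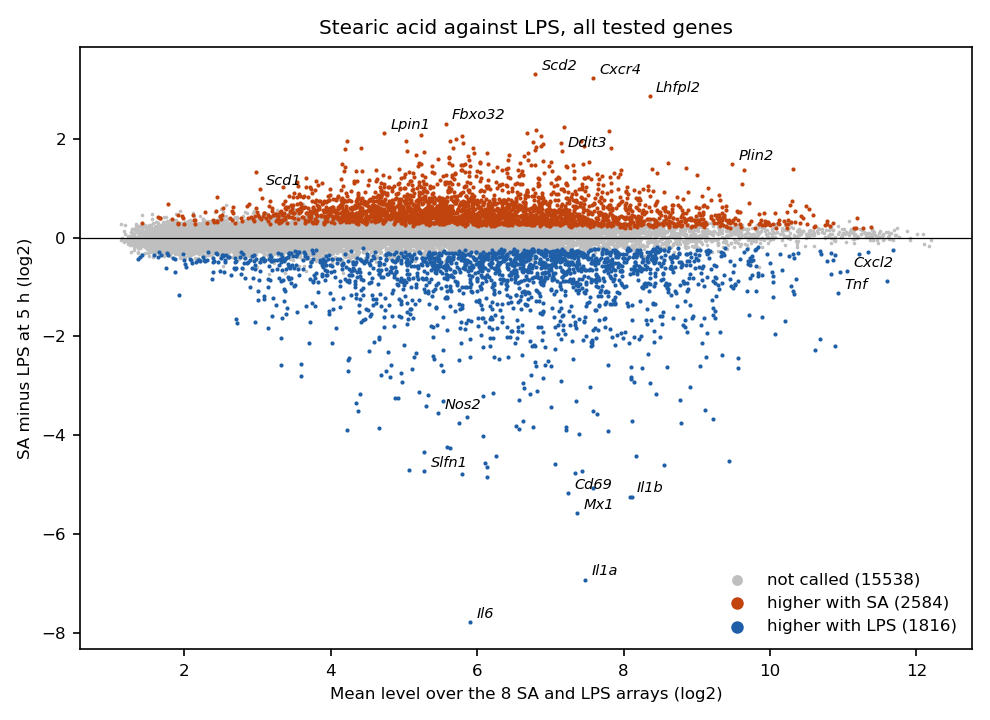
Difference between SA and LPS at 5 h (vertical axis, log2) against the mean level over the 8 arrays (horizontal axis, log2) for 19938 genes. Blue points are the 1816 genes called higher with LPS, reaching -7.77 for Il6, and orange points the 2584 called higher with SA, reaching 3.30 for Scd2; grey genes were not called.

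NF-kB cytokines were higher with LPS in most cases. Of 20 measured, 17 were higher with LPS, 0 were higher with SA and 3 (Lif, Ltb and Csf3) did not pass the test, with a median difference of -1.71 (SA minus LPS, log2) against 0.04 over all genes. The shares over all genes, 9.11% higher with LPS and 13% higher with SA, are the reference for this and the following list counts. Il6, the cytokine that drives the acute phase response, read 2.33, 2.05, 1.79 and 1.91 on the SA arrays and 9.71, 9.85, 10.03 and 9.58 on the LPS arrays. The SA and LPS groups were far from overlapping. The SA arrays lay close to the vehicle arrays but above them, and vehicle read 1.76, 1.73 and 1.68. Its log2 difference of -7.77 (SE 0.170) was the largest of all genes, a 218-fold higher level with LPS (limma adjusted p = 1.98e-20). Levels this low with SA lie under the array medians, which leaves the size of the fold uncertain. The same holds for Il1a, which encodes interleukin 1 alpha. It read 3.16, 3.59, 4.77 and 4.55 with SA and between 10.88 and 10.99 with LPS, 121-fold higher with LPS (limma adjusted p = 1.37e-16), and the SA arrays spread over more than a log2 unit.

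Il1b, the precursor of the cytokine that inflammasomes release, moved against vehicle in opposite directions. The SA arrays read 5.25, 5.33, 5.62 and 5.70, the vehicle arrays 6.04, 6.39 and 6.04, and the LPS arrays 10.65, 10.51, 10.88 and 10.81. Il1b was thus below every vehicle array on all SA arrays and far above them on all LPS arrays. The differences from vehicle were -0.68 for SA (limma adjusted p = 0.0152) and 4.56 for LPS (7.79e-17), and LPS exceeded SA 37.7-fold (1.76e-18). Tnf, the early cytokine of the same pathway, rose with both treatments. It read 9.48, 9.55 and 9.72 in vehicle, 10.27, 10.33, 10.45 and 10.40 with SA, and 11.51, 11.49, 11.57 and 11.38 with LPS, in 3 groups of arrays that did not overlap. The rise was 0.78 with SA and 1.90 with LPS on the log2 scale, and the level was 2.18-fold higher with LPS than with SA (limma adjusted p = 3.55e-11). Tnf was also higher with SA than with OA, by 1.08 (1.11e-09). Il12b, a subunit of interleukin 12, read 3.28 to 3.61 with SA, 3.57 to 3.79 in vehicle and 7.33 to 8.11 with LPS. Il10, the anti-inflammatory cytokine, read 3.66 to 3.79 with SA, 3.83 to 4.34 in vehicle and 5.02 to 5.47 with LPS. Neither passed the test between SA and vehicle (limma adjusted p = 0.623 and 0.237).

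Chemokines were likewise higher with LPS. Of 22 measured, 17 were higher with LPS and 0 with SA, with a median of -1.68. Against vehicle 7 rose with SA and 17 with LPS, where 1.94% and 9.22% of all genes rose. The 7 were Cxcl1, Cxcl2, Cxcl3, Cxcl10, Ccl3, Ccl4 and Ccl5, chosen for naming after their values were seen. Cxcl2, a neutrophil attractant, came closest to its LPS level among the 7 on the log2 scale. It read 8.79, 8.67 and 8.91 in vehicle, 10.59, 10.69, 10.79 and 10.80 with SA, and 11.44, 11.44, 11.47 and 11.25 with LPS. SA raised it by 1.93 and LPS by 2.61, which left LPS 1.61-fold above SA (limma adjusted p = 4.35e-06). Cxcl1, its close relative, read 5.68 to 5.80 in vehicle, 7.33 to 7.91 with SA and 9.26 to 9.62 with LPS, and was 3.37-fold higher with LPS (2.75e-12). Cxcl10, the interferon-inducible ligand of CXCR3, read 7.05, 7.13, 7.21 and 7.35 with SA and 11.84, 11.64, 11.70 and 11.61 with LPS. Its rise over vehicle was 0.68 with SA (limma adjusted p = 0.0275) and 5.19 with LPS. Cxcl9, Ccl12 and Ccl22, which attract lymphocytes and monocytes, differed from vehicle by 0.01, -0.42 and -0.44 with SA, none of which passed the test, and rose by 4.57, 3.47 and 3.38 with LPS. Of 14 chemokines with a promoter window 4 held the kB site, and they were Cxcl1, Cxcl2, Cxcl3 and Cxcl10, with SA minus LPS differences of -1.75, -0.68, -3.71 and -4.51. Genes with this motif had differences of unequal size.

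NF-kB subunits and their feedback inhibitors were the inflammatory list in which the count of members that rose with SA was highest. Against vehicle 11 of 21 rose with SA and 0 fell, and 20 rose with LPS, where 1.94%, 1.39% and 9.22% of all genes did. Between the treatments 20 of 21 were higher with LPS (median -0.99), and Relb alone did not pass the test, with a 95% interval of -0.44 to 0.05. Tnfaip3, which encodes the ubiquitin-editing inhibitor A20, read 7.32, 7.43 and 7.66 in vehicle, 8.03, 8.07, 8.20 and 8.02 with SA, and 9.11, 9.15, 9.11 and 9.01 with LPS. The SA arrays stood between the others without overlap, by 0.61 above vehicle and 1.02 below LPS (limma adjusted p = 7.73e-05 and 3.62e-10). Nfkbia, the inhibitor IkB alpha, read 8.94 to 9.31 with SA, 8.47 to 8.53 in vehicle and 10.17 to 10.33 with LPS. Traf1, a signalling adaptor, rose by 0.67 with SA and 2.88 with LPS, and Peli1, a ubiquitin ligase of the pathway, by 0.74 and 2.32.

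**Figure D2:**
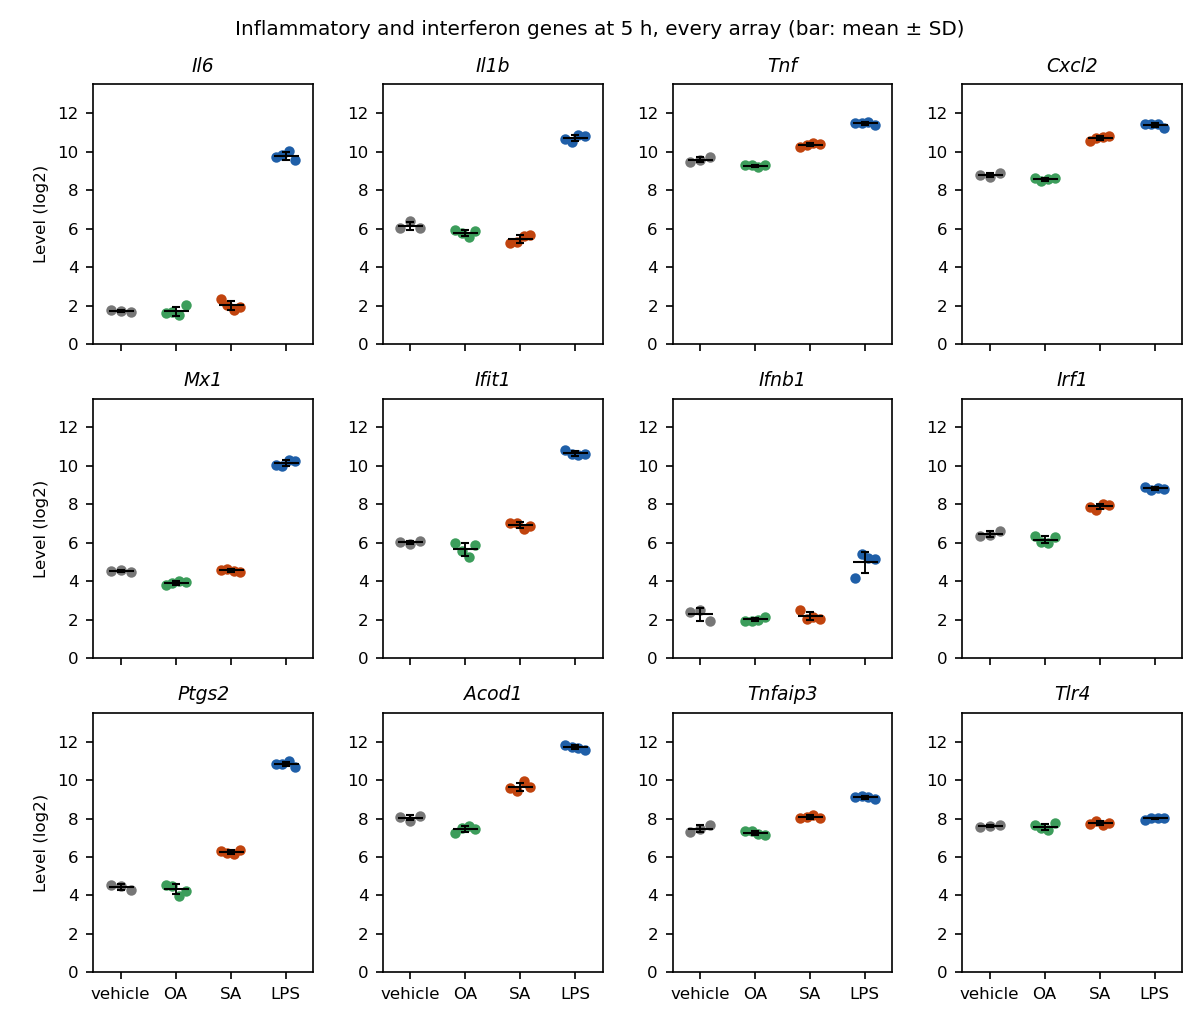
Level (log2) on every array at 5 h for 12 inflammatory and interferon genes, in vehicle (n = 3), OA, SA and LPS (n = 4 each); points are arrays and bars mean ± SD. Mx1 and Ifnb1 lie at the vehicle level with SA and Il6 close to it, while Cxcl2, Irf1 and Acod1 lie between vehicle and LPS.

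Genes of Toll-like receptors, their co-receptors and their signalling proteins were mostly higher with LPS. Of 22 in the list 14 were higher with LPS and 1 with SA (median -0.54), against 9.11% and 13% of all genes. Tlr3, Tlr7 and Tlr8, which sense RNA in endosomes, differed by -2.37, -1.72 and -1.59, and the adaptor Myd88 by -1.35. Tlr8 is one of the genes that moved from vehicle in opposite directions. It read 7.25, 7.46 and 7.38 in vehicle, 6.63, 6.61, 6.45 and 6.35 with SA, and 8.0, 8.12, 8.16 and 8.11 with LPS. The differences from vehicle were -0.85 with SA (limma adjusted p = 2.69e-06) and 0.73 with LPS (1.53e-06). The single gene of the list higher with SA was Tlr13, a bacterial RNA sensor (0.76). Tlr4 itself, the LPS receptor, read 7.73, 7.89, 7.66 and 7.78 with SA, 7.94, 8.03, 8.01 and 8.04 with LPS, and 7.55 to 7.66 in vehicle. Its difference of -0.24 passed the test narrowly (limma adjusted p = 0.0381), and was -0.14 with adjusted p = 0.28 after quantile normalisation. The call was also lost when only the 2 groups entered the fit and without any 1 of 6 of the 8 arrays. Ly96 and Cd180, a co-receptor and a relative of TLR4, did not pass the test, with 95% intervals of -0.32 to 0.16 and -0.13 to 0.14.

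Interferon-stimulated genes were almost all higher with LPS. Of 36 measured 35 were higher with LPS, 0 were higher with SA, and Ifi44l, at about 2 on all arrays, did not pass the test. The median was -2.63. Mx1, an antiviral GTPase, read 4.61, 4.66, 4.56 and 4.47 with SA, 4.52, 4.61 and 4.50 in vehicle, and 10.05, 10.01, 10.31 and 10.24 with LPS. The SA arrays fell among and beside the vehicle arrays, with a difference of 0.03 that did not pass the test, and LPS exceeded SA 47.8-fold (limma adjusted p = 1.72e-21). Ifit1, which binds foreign RNA, was shifted by SA as well. It read 7.03, 7.03, 6.70 and 6.88 with SA, 6.07, 5.95 and 6.07 in vehicle, and 10.83, 10.62, 10.56 and 10.62 with LPS. The rise was 0.88 with SA (limma adjusted p = 0.0236) and 4.63 with LPS. In all 7 of the 36 rose over vehicle with SA and 35 with LPS, and 16 were higher with SA than with OA. The corresponding shares over all genes were 1.94%, 9.22% and 3.3%. Of 27 with a promoter window 13 (48.1%) held the interferon motif, against 3.89% of tested genes. As 35 of the 36 members were higher with LPS, members with and without the motif went the same way. The list therefore cannot relate the motif to the direction.

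Upstream of these genes, Ifnb1, which encodes interferon beta, read 2.50, 2.06, 2.14 and 2.03 with SA, 2.42, 2.50 and 1.92 in vehicle, and 4.19, 5.41, 5.21 and 5.14 with LPS. SA and vehicle overlapped under the array medians, where the size of a fold is uncertain, and LPS was 6.98-fold higher than SA (limma adjusted p = 4.89e-12). Irf7, the factor that amplifies interferon production, read 5.15 to 5.41 with SA, 5.08 to 5.29 in vehicle and 8.50 to 8.89 with LPS. Irf1 stood apart from them and was chosen for naming after its values were seen. It read 6.33, 6.41 and 6.62 in vehicle, 7.86, 7.73, 8.01 and 7.98 with SA, and 8.91, 8.75, 8.83 and 8.82 with LPS. SA raised Irf1 by 1.44 and LPS by 2.37 (limma adjusted p = 2.49e-08 and 5.8e-14). Of 20 interferon regulators 16 were higher with LPS and 0 with SA. All 8 interferon-inducible GTPases measured were higher with LPS, with a median of -3.74, and 4 of the 4 with a promoter window held the interferon motif. Gbp5 was the one of the 8 that rose with SA over vehicle, by 0.63 (limma adjusted p = 0.046), against 5.70 with LPS.

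Genes of antigen presentation followed: 16 of 20 were higher with LPS and 0 with SA (median -0.81). Cd40, a co-stimulatory receptor, read 6.84 to 6.87 in vehicle, 7.34 to 7.47 with SA and 10.32 to 10.49 with LPS. Cd274, the checkpoint ligand PD-L1, read 7.29 to 7.34 in vehicle, 8.18 to 8.64 with SA and 9.97 to 10.14 with LPS. Both rose with SA over vehicle, by 0.54 and 1.12. Tap1, the peptide transporter, and Cd86 rose with LPS by 2.70 and 2.44, and their differences of 0.10 and 0.12 with SA did not pass the test.

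Enzymes of the inflammatory macrophage differed in the same direction, 9 of 16 higher with LPS and 2 with SA. Over all genes 9.11% were higher with LPS and 13% with SA, so the SA count was near the share over all genes. Ptgs2, the inducible cyclooxygenase, read 4.55, 4.50 and 4.27 in vehicle, 6.29, 6.19, 6.15 and 6.38 with SA, and 10.85, 10.83, 10.98 and 10.70 with LPS. SA raised it by 1.81 and LPS by 6.40, and LPS was 24.0-fold above SA (limma adjusted p = 8.03e-20). Acod1, which makes itaconate, read 8.10, 7.89 and 8.13 in vehicle, 9.58, 9.43, 9.94 and 9.65 with SA, and 11.81, 11.73, 11.69 and 11.58 with LPS. Nos2, the inducible nitric oxide synthase, showed no such intermediate level. It read 3.32, 3.96, 3.77 and 3.72 with SA, 3.68, 3.36 and 3.37 in vehicle, and 7.20 to 7.28 with LPS, and SA and vehicle overlapped. Higher with SA in this list were Hpgds and Alox5ap, genes of prostaglandin D2 and leukotriene synthesis, by 0.93 and 0.48. Both fell with LPS against vehicle (-1.07 and -0.57), and their SA minus vehicle differences of -0.14 and -0.09 did not pass the test.

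Of 19 inflammasome and cell death genes 12 were higher with LPS and 2 with SA, against 9.11% and 13% of all genes. The count on the SA side was thus not above the share over all genes. Nlrp3, the inflammasome sensor, read 6.90, 6.88 and 6.76 in vehicle, 7.53, 7.28, 7.56 and 7.63 with SA, and 9.44, 9.50, 9.52 and 9.57 with LPS. It thus rose with both, by 0.66 and 2.66. Mlkl, the executor of necroptosis, differed by -2.14, and Aim2 and Casp8 by -1.39 and -1.09. The 2 higher with SA were Nlrp1b (1.08) and Bbc3 (0.48). Nlrp1b fell by 1.31 with LPS, and Bbc3, which encodes PUMA, passed the test against vehicle in neither treatment.

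The stress genes of ATF4 and CHOP ran the other way in part. Of 39 measured 18 were higher with SA, 4 were higher with LPS and 17 did not pass the test, with a median of 0.28. Against vehicle 20 rose with SA and 0 fell, while 10 rose and 5 fell with LPS. Over all genes 1.94% rose and 1.39% fell with SA, and 9.22% rose and 13.2% fell with LPS. The 5 that fell with LPS were near that share, and the 4 higher with LPS were near the 9.11% of all genes. Ddit3, which encodes CHOP, read 7.96, 7.85, 8.20 and 8.11 with SA, 6.23, 6.34, 6.50 and 6.04 with LPS, and 6.45, 6.79 and 6.73 in vehicle. All SA arrays were above all others, and LPS lay a little under vehicle. SA raised it by 1.37 (limma adjusted p = 1.07e-08), its LPS minus vehicle difference was -0.38 (0.0109), and SA exceeded LPS 3.37-fold (6.29e-13). Atf4 mRNA, named after its values were seen, showed the same pattern at 8.60 to 8.71 with SA, 7.64 to 7.83 with LPS and 7.91 to 8.12 in vehicle.

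Chac1, a glutathione-degrading enzyme, read 5.82, 5.76, 5.83 and 5.86 with SA, 4.81, 4.89, 4.69 and 4.54 with LPS, and 4.75, 4.62 and 4.67 in vehicle. Asns, asparagine synthetase, read 7.92, 7.80, 7.96 and 7.98 with SA, 6.86, 6.85, 7.19 and 6.86 with LPS, and 6.68, 6.86 and 6.97 in vehicle. For both, LPS overlapped vehicle and SA was clear of it, with SA minus LPS differences of 1.09 and 0.98 (limma adjusted p = 7.2e-09 and 1.52e-08). Trib3, a pseudokinase that restrains ATF4, was more variable with SA, at 4.55, 5.01, 5.75 and 5.28, against 4.44 to 4.71 with LPS. Its difference of 0.60 had an adjusted p of 0.0101, of 0.0624 without replicate 3 of SA and of 0.0529 when only the 2 groups entered the limma fit.

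The 4 members of the list higher with LPS were Jdp2, Slc7a11, Nupr1 and Ero1a, of which Nupr1 and Ero1a were named after their values were seen. All 4 rose with SA over vehicle as well. Slc7a11, the cystine transporter, read 7.31, 7.60 and 7.55 in vehicle, 8.47, 8.46, 8.56 and 8.52 with SA, and 10.01, 10.10, 10.06 and 9.77 with LPS. The steps were 1.02 with SA and 2.50 with LPS (limma adjusted p = 5.17e-06 and 2.34e-14). Jdp2, an AP-1 family repressor, rose by 0.53 and 2.18, and Nupr1, a stress-induced chromatin protein, by 1.07 and 2.06. Ppp1r15a, which encodes GADD34, the subunit that dephosphorylates eIF2alpha, rose to the same range with both treatments. It read 7.05 to 7.33 with SA, 6.93 to 7.28 with LPS and 5.65 to 5.83 in vehicle, with a 95% interval of -0.18 to 0.34 for SA minus LPS. Of 33 members with a promoter window 12 (36.4%) held the ATF4 motif, against 3.62% of tested genes. Of the 12, Asns, Chac1, Herpud1, Pck2 and Trib3 were higher with SA, Jdp2, Nupr1 and Slc7a11 were higher with LPS, and Atf3, Fgf21, Slc1a4 and Vldlr did not pass the test. Genes with the motif thus lay on both sides of the comparison. Of 12 aminoacyl-tRNA synthetase genes with a window 4 (Gars, Iars, Tars and Yars) held it, and none of the 4 passed the test.

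**Figure D3:**
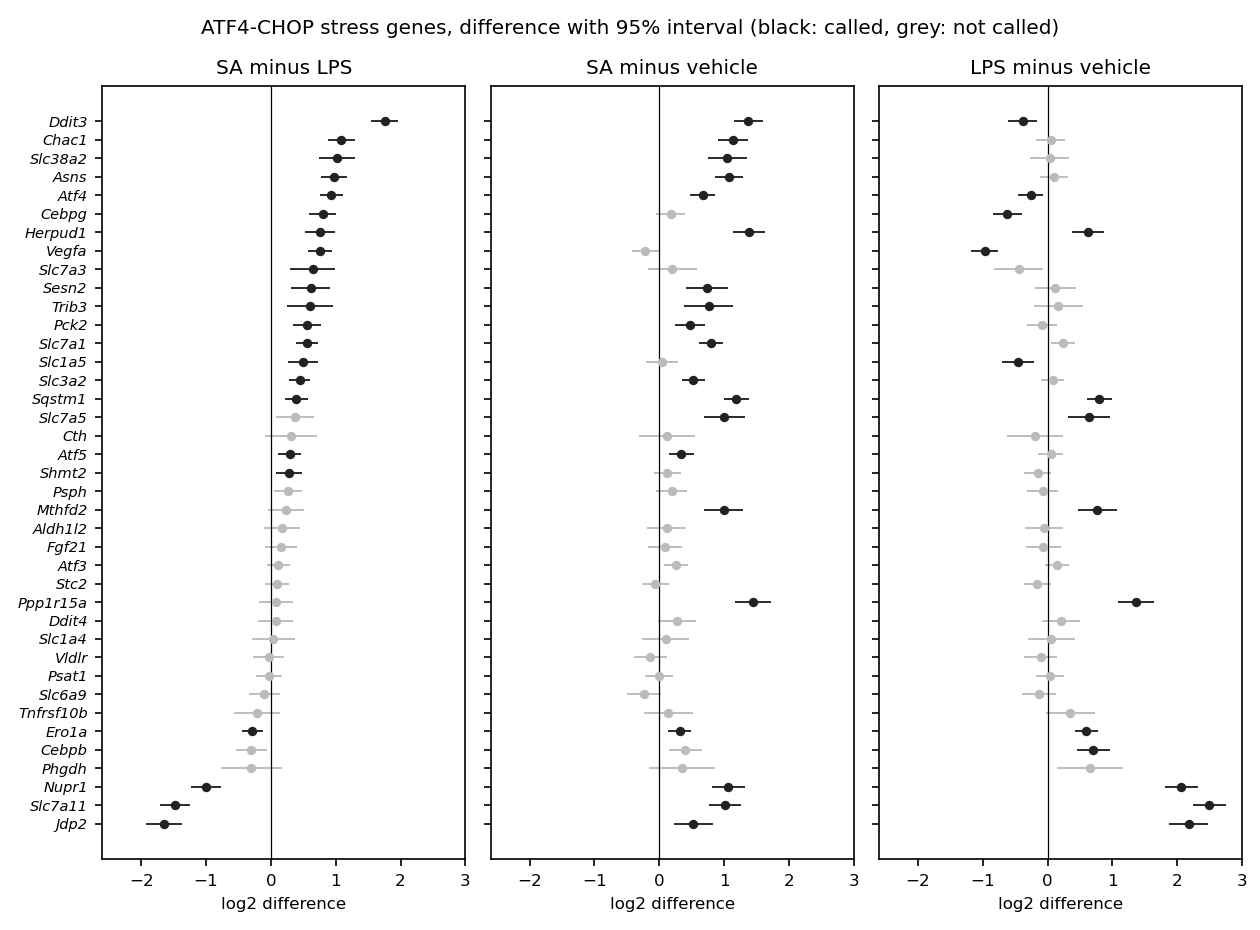
Log2 differences (horizontal axis) with 95% intervals for the 39 measured ATF4-CHOP genes, SA minus LPS, SA minus vehicle and LPS minus vehicle; black points were called. Ddit3 (1.75) leads the SA side and Jdp2 (-1.65) the LPS side, and 20 members rose with SA against vehicle.

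Among the enzymes that charge transfer RNA, several of them known ATF4 targets, 8 of 19 aminoacyl-tRNA synthetase genes were higher with SA and 2 with LPS (median 0.12). Of all genes 13% were higher with SA and 9.11% with LPS. Sars, Eprs and Cars differed by 0.68, 0.60 and 0.56, and Wars, an interferon-inducible member, by -0.79. Of 28 ER chaperone and XBP1 target genes 11 were higher with SA and 0 with LPS (median 0.23), but 7 were called after median centring and 7 when only the 2 groups entered the fit. Against vehicle 2 of the 28 rose with SA, Ern1 and Hspa5, while 3 rose and 11 fell with LPS. Over all genes the shares were 1.94%, 9.22% and 13.2%. Ern1, the ER stress sensor IRE1 alpha, read 6.69 to 6.83 with SA, 5.82 to 6.28 with LPS and 6.11 to 6.26 in vehicle. Hspa5, the chaperone BiP, read 9.68 to 9.75 with SA, 9.58 to 9.84 with LPS and 9.32 to 9.38 in vehicle. It rose by 0.37 with SA and 0.36 with LPS, and the 95% interval of their difference was -0.15 to 0.16. Dnajb9, an ER co-chaperone, read 7.92 to 8.02 with SA, 6.94 to 7.45 with LPS and 7.43 to 7.78 in vehicle, so that its difference of 0.71 included a fall of 0.41 with LPS.

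Genes of the oxidant response factor NRF2 were higher with SA in 10 of 24 and with LPS in 3 (median 0.16), against 13% and 9.11% of all genes. Gclc, which makes the first step of glutathione synthesis, read 7.47, 7.48, 7.64 and 7.66 with SA, 6.38, 6.48, 6.71 and 6.27 with LPS, and 6.39, 6.63 and 6.77 in vehicle. LPS and vehicle overlapped, and SA exceeded LPS 2.15-fold (limma adjusted p = 3.27e-08). Osgin1, an oxidative stress growth inhibitor, was 1.16 higher with SA, with a rise of 0.67 over vehicle with SA and a difference of -0.49 with LPS. Hmox1, heme oxygenase, read 11.36 to 11.42 with SA, 10.99 to 11.01 with LPS and 10.89 to 10.91 in vehicle. Of 20 members with a window 8 (40.0%) held TGACNNNGC, the antioxidant response element, against 15.2% of tested genes. Of the 8, 3 were higher with SA, 1 (Nfe2l2) was higher with LPS and 4 did not pass the test. The share was 33.3% in both the ATF4-CHOP and the immediate early lists, so it was not particular to NRF2 genes.

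Scd2, a stearoyl-CoA desaturase, the enzyme that turns stearate into oleate, had the largest difference of all genes in favour of SA. It read 8.45, 8.50, 8.39 and 8.43 with SA, 5.56, 4.98, 5.07 and 4.96 with LPS, 7.96, 7.97 and 7.95 in vehicle, and 7.08, 7.05, 7.01 and 6.87 with OA. The 4 groups did not overlap, and the order ran from SA through vehicle and OA to LPS. SA exceeded LPS 9.84-fold (limma adjusted p = 1.24e-17), and most of the gap lay on the LPS side, with -2.81 for LPS and 0.48 for SA against vehicle. Scd1, its relative, read 3.10 to 3.93 with SA and 2.28 to 2.74 with LPS, below the array medians, so that the size of its difference is uncertain. Fads1 and Fads2, the delta-5 and delta-6 desaturases, differed by 1.34 and 1.29. Fads1 read 7.06 to 7.47 with SA, 7.32 to 7.42 in vehicle and 5.67 to 6.15 with LPS, so SA overlapped vehicle. Fads2 read 5.29, 5.72, 5.65 and 5.98 with SA, 5.03, 5.09 and 4.97 in vehicle, and 4.25 to 4.51 with LPS, above vehicle with SA and below it with LPS. In the list of fatty acid synthesis and desaturation 11 of 20 were higher with SA and 1, Acacb, with LPS. Against vehicle 3 rose and 0 fell with SA, and 1 rose and 9 fell with LPS. Of all genes 1.94% rose with SA and 13.2% fell with LPS.

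Sterol synthesis genes, the targets of SREBP2, were higher with SA in 14 of 21 and with LPS in 0 (median 0.61). Against vehicle 13 fell with LPS and 3 rose with SA, which were Insig1, Mvd and Sc5d. Over all genes 13.2% fell with LPS and 1.94% rose with SA. Insig1, which retains the SREBP complex in the ER, read 9.32, 9.39, 9.31 and 9.39 with SA, 7.73, 7.84, 7.96 and 7.88 with LPS, and 8.48, 8.46 and 8.46 in vehicle. SA stood above vehicle by 0.88 (limma adjusted p = 3e-06), and LPS differed from it by -0.62 (3.68e-05). Dhcr7, the last enzyme of cholesterol synthesis, read 6.41 to 6.80 with SA, 6.37 to 6.54 in vehicle and 4.93 to 5.31 with LPS. Sqle, squalene epoxidase, and Msmo1, a sterol oxidase, differed by 1.04 and 0.95. Hmgcs1, an early enzyme of the pathway, had a difference of 0.19 that did not pass the test (limma adjusted p = 0.139), and passed it after quantile normalisation (0.288, adjusted p = 0.0202). Between the fatty acids, 15 of the 21 were higher with SA than with OA, against 3.3% of all genes.

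Cholesterol efflux genes of the nuclear receptor LXR were higher with SA in 8 of 14 and with LPS in 1 (Mertk). Against vehicle 1 rose and 1 fell with SA, and 0 rose and 6 fell with LPS, where 13.2% of all genes fell. Mylip, Npc1, Abcg1 and Scarb1 differed by 0.85, 0.88, 0.78 and 0.68. Npc1, which exports cholesterol from lysosomes, read 8.28 to 8.67 with SA, 8.35 to 8.52 in vehicle and 7.54 to 7.75 with LPS, so SA and vehicle overlapped. Abca1, the main efflux pump, read 8.68 to 8.82 with SA and 8.51 to 8.73 with LPS, and did not pass the test.

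Fat storage and oxidation genes were higher with SA in 14 of 27 of the PPAR list and 7 of 23 of the lipid droplet list, and higher with LPS in 0 and 1. Over all genes the shares were 13% and 9.11%. Against vehicle the PPAR list had 5 rising and 0 falling with SA, and 1 rising and 9 falling with LPS. The droplet list had 3 rising and 1 falling with SA, and 2 rising and 5 falling with LPS. Of all genes 1.94% rose and 1.39% fell with SA, and 9.22% rose and 13.2% fell with LPS. Plin2, the coat protein of lipid droplets, read 10.16, 10.25, 10.26 and 10.25 with SA, 8.57, 8.71, 8.81 and 8.87 with LPS, 9.36, 9.51 and 9.45 in vehicle, and 10.27, 10.33, 10.40 and 10.37 with OA. It rose by 0.79 with SA (limma adjusted p = 8.95e-07), fell by 0.70 with LPS (3.05e-07), and did not pass the test between SA and OA, where the 95% interval was -0.27 to 0.05. Hilpda, a lipase inhibitor on droplets, rose by 0.66 with SA over vehicle and had an SA minus OA interval of -0.28 to 0.30, while its LPS difference of -0.28 did not pass the test. Angptl4 and Cpt1a, a lipase inhibitor and the gate of mitochondrial fatty acid import, were lower with SA than with OA, by -0.93 and -0.44. Angptl4 read 4.73 to 4.92 with SA, 4.05 to 4.62 with LPS and 5.51 to 6.04 with OA. Cpt1a read 6.84 to 7.17 with SA, 6.63 to 6.87 with LPS and 7.39 to 7.51 with OA, and its SA minus LPS difference of 0.27 (limma adjusted p = 0.035) was 0.21 after median centring, where it no longer passed. The call was also lost when only the 2 groups entered the fit, without replicate 3 or 4 of SA and without replicate 1, 3 or 4 of LPS.

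Pparg, the nuclear receptor of lipid storage, held its vehicle level with SA and was low with LPS. The arrays read 7.58, 7.29, 7.55 and 7.49 with SA, 7.43, 7.44 and 7.53 in vehicle, and 5.68, 5.99, 5.96 and 6.02 with LPS, 2.96-fold higher with SA (limma adjusted p = 2.88e-13). Lpin1, a phosphatidate phosphatase, read 5.54 to 5.95 with SA, 5.14 to 5.38 in vehicle and 3.34 to 4.19 with LPS. Mgll, monoacylglycerol lipase, was instead a gene that SA moved: 7.04, 6.80, 6.92 and 7.13 with SA, 5.44 to 5.74 with LPS and 5.52 to 5.90 in vehicle. It rose by 1.21 over vehicle with SA (limma adjusted p = 7.76e-07), and its LPS difference of -0.21 did not pass the test. Pcyt1a, the control step of phosphatidylcholine synthesis, rose by 0.45 with SA and differed by -1.08 with LPS. In its list of acyl-CoA synthetases and phospholipid enzymes 6 of 29 were higher with SA and 3 with LPS. The shares over all genes were 13% and 9.11%. Cd36, the fatty acid receptor, and Pdk4, a PPAR target, did not pass the test (limma adjusted p = 0.566 and 0.601).

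**Figure D4:**
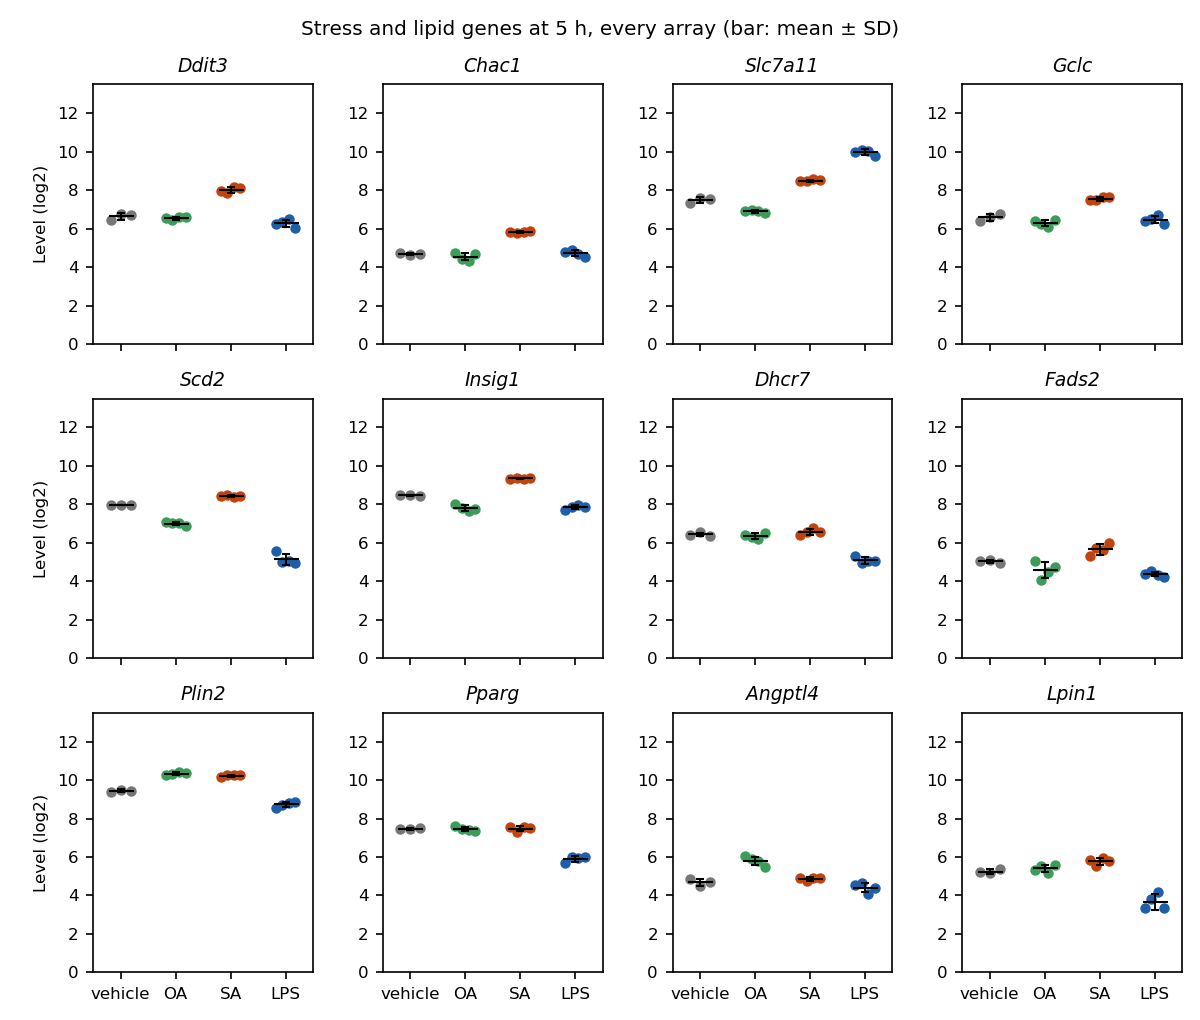
Level (log2) on every array at 5 h for 12 stress and lipid genes, in vehicle (n = 3), OA, SA and LPS (n = 4 each); points are arrays and bars mean ± SD. Ddit3, Chac1 and Gclc stand highest with SA, Slc7a11 stands highest with LPS, Scd2, Dhcr7, Pparg and Lpin1 are low with LPS, and Angptl4 is highest with OA.

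Cell cycle genes were higher with SA in 24 of 35 and with LPS in 1, Ccne1 (median 0.52). Against vehicle 28 fell with LPS, where 13.2% of all genes fell. With SA 4 fell and 0 rose, where 1.39% and 1.94% of all genes did. Cdt1, which licenses replication origins, read 6.36, 6.38, 6.61 and 6.64 with SA, 6.48, 6.11 and 6.23 in vehicle, and 5.54, 5.27, 4.82 and 5.08 with LPS. Its SA arrays were in the range of vehicle or just above, and its LPS arrays were below. Bub1, a mitotic checkpoint kinase, read 5.48 to 6.05 with SA, 5.68 to 5.97 in vehicle and 4.20 to 4.86 with LPS. Ccnd1, cyclin D1, fell with both, and read 8.75, 8.87, 8.61 and 8.92 with SA, 8.06, 8.01, 7.88 and 8.43 with LPS, and 9.47, 9.28 and 9.34 in vehicle. The falls were -0.57 for SA and -1.27 for LPS (limma adjusted p = 0.0145 and 5.93e-08).

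Lysosome and autophagy genes were higher with SA in 14 of 25 and with LPS in 0 (median 0.29). Against vehicle 15 fell and 1 rose with LPS, where 13.2% of all genes fell and 9.22% rose. With SA 2 rose, Sqstm1 and Gabarapl1, where 1.94% of all genes rose. The median LPS minus vehicle difference of the list was -0.27. Of 13 housekeeping genes 5 also fell with LPS and 0 rose, with a median of -0.10. Tfeb, the master regulator of lysosome genes, read 6.57 to 6.66 with SA, 6.40 to 6.79 in vehicle and 5.25 to 5.59 with LPS. Gabarapl1, an autophagosome protein, was called in both, 7.56 to 7.91 with SA, 7.06 to 7.41 in vehicle and 6.52 to 6.84 with LPS.

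Among surface receptors and identity genes of macrophages 13 of 31 were higher with LPS and 3 with SA, against 9.11% and 13% of all genes. Fcgr1, the high-affinity receptor for IgG, read 6.59, 6.66, 6.29 and 6.51 with SA, 8.69, 8.32, 8.58 and 8.87 with LPS, and 7.16, 7.57 and 7.38 in vehicle. It was thus below vehicle on all SA arrays and above it on all LPS arrays, by -0.86 and 1.25 (limma adjusted p = 0.00013 and 4.3e-08). Fn1, fibronectin, moved likewise, by -0.50 and 0.55. Clec4e, the receptor Mincle, rose with both, by 1.08 and 2.65. Ccr2, the monocyte chemokine receptor, read 3.63 to 4.11 with SA, 4.26 to 4.63 with LPS and 4.77 to 4.82 in vehicle, and fell with SA by 0.89. Cxcr4, the receptor of CXCL12 and the second largest difference on the SA side, read 9.11, 9.17, 9.30 and 9.21 with SA, 8.71, 8.54 and 9.01 in vehicle, and 5.23, 6.22, 6.64 and 5.80 with LPS. It differed from vehicle by -2.78 with LPS and by 0.44 with SA, of which the latter did not pass the test. Mrc1, the mannose receptor, did not pass the test between SA and LPS, with a 95% interval of -0.26 to 0.22.

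Gpr65 and Spic changed from vehicle in the same direction with both treatments and were named after their values were seen. Gpr65, a proton-sensing receptor, read 7.42 to 7.72 with SA, 7.12 to 7.65 with LPS and 8.78 to 9.01 in vehicle. It fell by 1.25 with SA and by 1.44 with LPS. Spic, a transcription factor of iron-handling macrophages, rose by 1.95 and 1.64, from 4.61 to 5.27 in vehicle to 6.71 to 7.25 with SA and 6.26 to 6.79 with LPS. For both, the 95% intervals of SA minus LPS included 0 (-0.04 to 0.42 and -0.01 to 0.63).

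The remaining lists were mixed, and over all genes 13% were higher with SA and 9.11% higher with LPS. Called in either direction were 64.5% of immediate early, 48.1% of glycolysis and 61.5% of heat shock genes, against 22.1% of all genes. The shares for respiratory chain, alternative activation and housekeeping genes lay nearer to that, at 20.0%, 29.2% and 15.4%. Of 31 immediate early genes 14 were higher with LPS, led by the phosphatase Dusp16 (-2.02), and 6 with SA, led by Egr2 (1.09). Of 27 glycolysis and hypoxia genes 10 were higher with LPS, among them Hk2 (-0.97) and Pfkfb3 (-0.87), and 3 with SA, a count that was 7 after quantile normalisation. Of 25 respiratory chain genes 4 were higher with SA and 1, Cycs, with LPS, and the 4 became 2 after median centring and 10 after quantile normalisation. Heat shock and metallothionein genes split 4 and 4 of 13, with Mt2 higher with LPS (-1.08) and Bag3 with SA (0.61), and their median changed sign with median centring (0.02 to -0.03). Of 24 genes of alternative activation 3 were higher with SA and 4 with LPS, and 1 of 13 housekeeping genes was called in each direction (Gusb and Ywhaz).

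**Figure D5:**
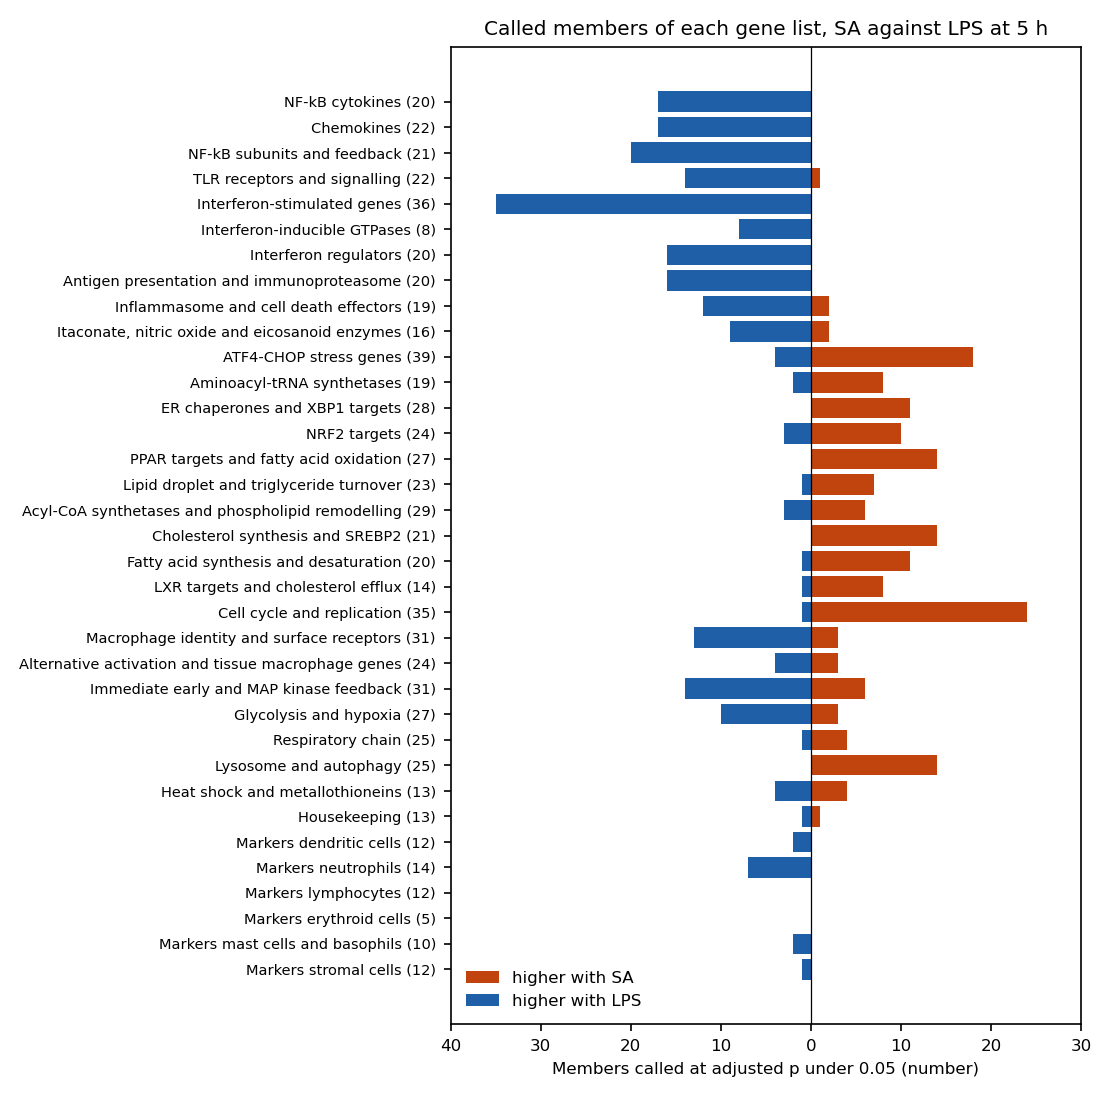
Number of called members (horizontal axis) of each gene list, higher with SA to the right in orange and higher with LPS to the left in blue, with the number measured in parentheses. Inflammatory and interferon lists lie on the LPS side, led by 35 of 36 interferon-stimulated genes, and lipid, stress, lysosome and cell cycle lists on the SA side, led by 24 of 35 cell cycle genes.

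The 12 largest differences in each direction whose arrays did not overlap were named in full. Non-overlapping arrays were seen for 22.2% of all genes. Beside the genes above, those higher with LPS were Ifi205, Cd69, Ifi213, Ifit3b, Mx2, Slfn1 and AA467197, at -5.24 to -4.72. Cd69, an early activation receptor, had means of 4.66 with SA, 4.74 in vehicle, 4.28 with OA and 9.82 with LPS. Those higher with SA were Lhfpl2, Fbxo32, Cipc, Cd300lb, Fnip2, Fblim1, Fbxo5, Mtss1 and Snx30. Lhfpl2, a membrane protein, read 9.76, 9.73, 9.87 and 9.78 with SA, 9.23, 9.16 and 9.21 in vehicle, and 7.05, 6.99, 6.83 and 6.86 with LPS. Fbxo32, the ubiquitin ligase atrogin-1, read 6.49, 6.62, 7.13 and 6.64 with SA, 5.11, 5.55 and 5.58 in vehicle, and 4.28, 4.83, 4.52 and 4.04 with LPS. Like these genes, Cipc, a regulator of the circadian clock, and Fnip2, a partner of folliculin, rose with SA and fell with LPS. Cd300lb, Mtss1, Snx30, Fblim1 and Fbxo5 fell with LPS by 1.92 to 2.42 and had SA minus vehicle differences of -0.25 to 0.15 that did not pass the test.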

How the data were processed

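RNA of bone marrow-derived macrophages was measured on 23 one-colour arrays in 6 groups. The authors deposited 1 log2 value per probe set and array. RMA and limma are named in the submitters' processing notes, and their versions are not given in the sources used here. RMA equalises array distributions, so a shift common to all genes of an array cannot be seen. The platform annotation gave 1 gene symbol to 21789 of 35556 probe sets and several to 1621, and did not list 12146. Per gene the probe set with the highest mean was kept, which left 19938 genes. A mean per group was fitted to all 23 arrays with limma 3.58.1 in R 4.3.3, without a replicate block, with two-sided Benjamini-Hochberg adjusted p-values called under 0.05. In simulated data for SA against LPS on 19938 genes, 35.8% of 67 changes of 0.5 on the log2 scale and 100% of 67 changes of 1 were recovered, with 8 false calls. The simulation changed 200 genes, while 22.1% of genes were called in the data. The adjustment depends on that share, so the recovered shares do not give the sensitivity of the comparison itself.

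Genes were described in 35 lists (791 names, 719 measured). Named were the 12 largest differences in each direction with non-overlapping arrays, up to 4 called members of each list with at least 3 called, and 42 anchor genes where tested. Other genes named were chosen after their values were seen. The comparison, lists and anchors were chosen with earlier results of these data known, so list counts are descriptions. Promoter windows were from RefSeq (GRCm38.p6), found for 115 of the 148 named genes.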

Additional observations from a re-analysis of the deposited data

Results flagged for a closer look

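In 13 of 296 groups of 4 arrays (4.39%), 1 array lay further from the others than Dixon's test allows, in 12 of the 148 named genes; chance flags about 1 in 20 groups. Replicate 3 of SA was the distant array for Abcg1 (8.09), Cycs (8.32), Mrc1 (7.71) and Sars (7.42), replicate 1 of SA for Pfkfb3 (6.88) and Plin2 (10.2), and replicate 2 of SA for Angptl4 (4.73). With LPS, replicate 1 was distant for Il10 (5.02), replicate 2 for Casp8 (8.10), replicate 3 for Asns (7.19) and Pfkfb3 (7.48), and replicate 4 for Cxcl2 (11.3) and Ifi213 (8.48).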

How the results depend on the processing

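The count for SA against LPS stayed between 3664 and 4688 genes over the other settings and between 3902 and 4192 when 1 array was left out. When every probe set with 1 symbol was fitted, 4762 probe sets were called. The labels do not say whether replicate numbers pair the samples. Same-numbered SA and LPS arrays correlated by 0.001 to 0.062 in their deviations, and differently numbered ones by -0.067 to 0.037. Values this small do not settle whether the arrays were paired. The fit with a replicate block called 4425 genes. For SA against vehicle 373 genes were called when only the groups compared entered the fit, and 389 to 580 when 1 array was left out, with 389 without replicate 2 of vehicle. For SA against OA the count was 660 with only the groups compared and 866 to 1033 with 1 array left out, and for LPS against vehicle it was 3615 to 4336 with 1 array left out. No named gene reversed. Counting each named gene under each other setting, called or not, 2487 results stayed on their side of the threshold, 25 lost a call and 2 gained one. Calls were lost for Cpt1a, Retnlg, Sdhb, Tlr4 and Trib3 and gained for Abca1 and Hmgcs1. Retnlg lost its call with array weights (-0.619) and in 5 of the 8 fits without 1 array, and Sdhb after median centring (0.205) and when only the groups compared entered the fit (0.258). The signal over background was not available for these arrays, so for genes near the array medians or below the size of a difference is uncertain.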
